A study of Mus musculus with 12 samples.

Results

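The comparison described here is that of mouse neural cells 1 day after knockdown of Zfp335 (ZNF335 in human nomenclature) with cells given a control knockdown. It takes in 6 of the 12 arrays of the series, 3 knockdown and 3 control, chosen by sample title, source name and time label. The labels give the C57BL/6 strain, a knockdown on embryonic day 14.5 in both groups, a stage of embryonic day 15.5 and a harvest on postnatal day 0, which cannot all hold for cells taken at 1 day. The knockdown samples are titled siRNA, whereas the series design names shRNA and sorting of the cells by flow cytometry. No promoter, vector, hairpin sequence or number of animals is given. Whether replicates came from separate embryos is unstated, and p-values cover only the spread of these samples, possibly a technical one. Expression was read on Affymetrix 3 prime arrays as 1 intensity per probe set for 45037 probe sets besides the array's own controls, and 18193 genes were read by at least 1 probe set with a single gene symbol, the brightest of which stands for the gene.

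ZNF335 is a zinc finger protein that binds trithorax-group complexes, which methylate lysine 4 of histone H3, a mark of active promoters. REST (NRSF) is a repressor that holds neuronal genes silent in cells that are not neurons, through corepressors recruited to RE1 sites. In the developing cortex, radial glia divide at the ventricle and give rise to intermediate progenitors and then to neurons, and inherited loss of ZNF335 causes severe microcephaly. The series is titled for a role of the protein in dividing stem cells and in neurons through these regulators.

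The 6 arrays did not form 1 even series. The bacterial bioB and bioC transcripts, which are spiked into every hybridisation in a fixed amount, had mean log2 intensities of 11.82 and 11.81 in knockdowns 2 and 3 and 11.61 in control 2, against 9.43 in knockdown 1, 8.93 in control 1 and 10.32 in control 3. The largest gap lay between control 3 and control 2, and it split the arrays into a strong-control set (knockdowns 2 and 3, control 2) and a weak-control set (knockdown 1, controls 1 and 3). Each set holds both groups, so most comparisons below are given within each. Over all probe sets, arrays of the same set correlated at 0.947 to 0.986 and arrays of different sets at 0.758 to 0.864, whatever their group. The array closest to knockdown 1 was control 1, and control 3 stood apart from both at 0.950 and 0.947. Of the probe sets tested, 23418 (52%) differed in level between the sets at an adjusted p under 0.05 in limma, 12684 of them higher in the weak set. All knockdown arrays were washed on fluidics station 7 and all control arrays on station 8, so the station and the knockdown cannot be told apart. The ratio of the 3 prime to the 5 prime Actb probe sets, a sign of RNA quality, lay between 2.09 and 2.91 and was highest in control 3.

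**Figure D1:**
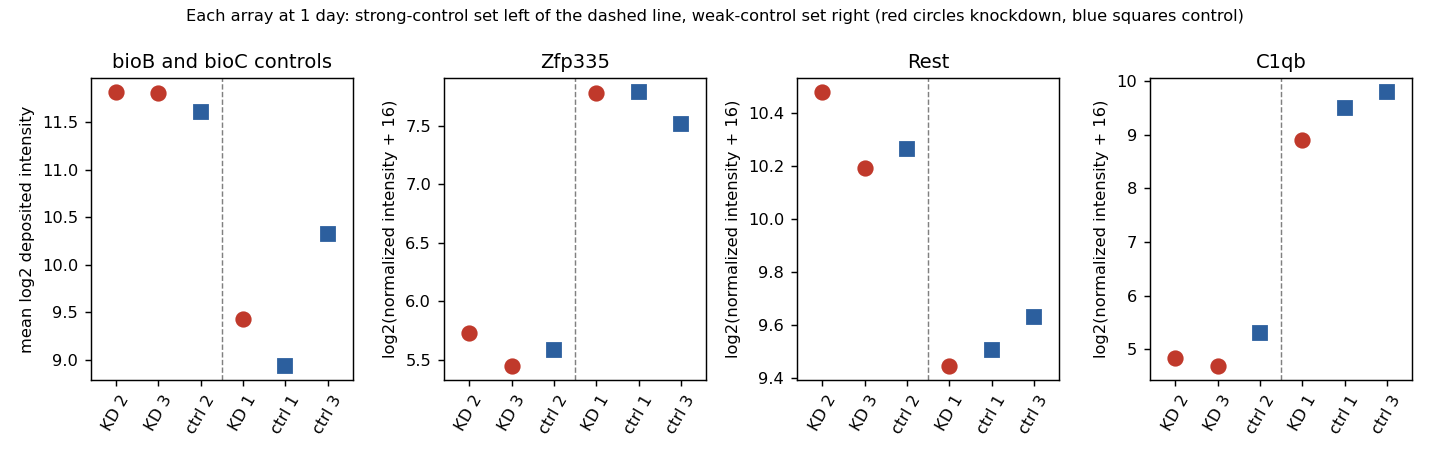
Each panel plots the 6 arrays in the same order, the 3 strong-control arrays left of the dashed line and the 3 weak-control arrays right of it. The left panel gives the mean log2 deposited intensity of bioB and bioC, and the others the log2(normalised intensity + 16) of Zfp335, Rest and C1qb. Zfp335 lies between 5.45 and 5.73 in the strong set and between 7.51 and 7.79 in the weak set, with the groups mixed in both.

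The target itself was read by 1 probe set (on chromosome 2). Zfp335 had deposited intensities of 136, 53.7 and 41.0 in knockdowns 1, 2 and 3 and 139, 46.1 and 127 in controls 1, 2 and 3. It was thus low in all 3 strong-control arrays and high in all 3 weak-control arrays, and the groups overlapped. The log2(normalised intensity + 16) was 5.73 and 5.45 in knockdowns 2 and 3 against 5.59 in control 2, and 7.78 in knockdown 1 against 7.79 and 7.51 in controls 1 and 3. Without regard to the sets, the knockdown arrays were lower by 0.64 on the log2 scale (limma, SE 0.84), with 2 strong-control arrays in the knockdown group and 1 in the control group. With the set as a block, the difference was 0.06 (95% interval -0.38 to 0.51). On this scale, which understates the change of dim probe sets, a lower level of the target at 1 day was not shown by this probe set, and no source used here gives an efficiency of knockdown. The libraries are called knockdown and control by their labels throughout.

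No probe set passed an adjusted p of 0.05 in any test of knockdown against control (0% of 45037 tested, limma with Benjamini-Hochberg adjustment). Without a block, 131 probe sets had an unadjusted p under 0.05, 87 higher and 44 lower in the knockdown arrays. With the set as a block, 840 had one, 484 higher and 356 lower, and the median standard error was 0.220 in place of 0.403. The counts were 847 within the strong set, 938 within the weak set and 864 for the difference of the effects between the sets, and none of these passed adjustment. All of these counts lie below the 5% of probe sets that an unadjusted p under 0.05 takes in when nothing differs. The groups did not overlap for 1195 probe sets (2.65%), 678 higher (1.51%) and 517 lower (1.15%) in the knockdowns, and for 232 genes in the higher (1.28%) and 218 in the lower direction (1.2%).

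The differences of the 2 sets were not alike overall. Over the 45037 probe sets, the strong-set and weak-set differences, which share no array, correlated at -0.13 (Spearman -0.11), and 46.5% of probe sets had the same sign in both. Without control 3 the correlation was 0.05. A gene is called separated in both sets here where knockdowns 2 and 3 both lay on one side of control 2 and knockdown 1 lay on the same side of both controls 1 and 3. This held for 1316 genes in the higher direction (7.23%) and 1952 in the lower (10.7%), while 3576 genes (19.7%) were separated in opposite directions in the sets. Counted by probe set, 3948 were separated higher (8.77%) and 4094 lower (9.09%). With so few arrays in each set, such an order is common also when nothing differs, so these shares are not a test. Of genes whose difference reached 0.58 on the log2 scale in both sets, 36 were higher in both (0.198%), 21 lower in both (0.115%) and 177 opposite (0.973%).

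**Figure D2:**
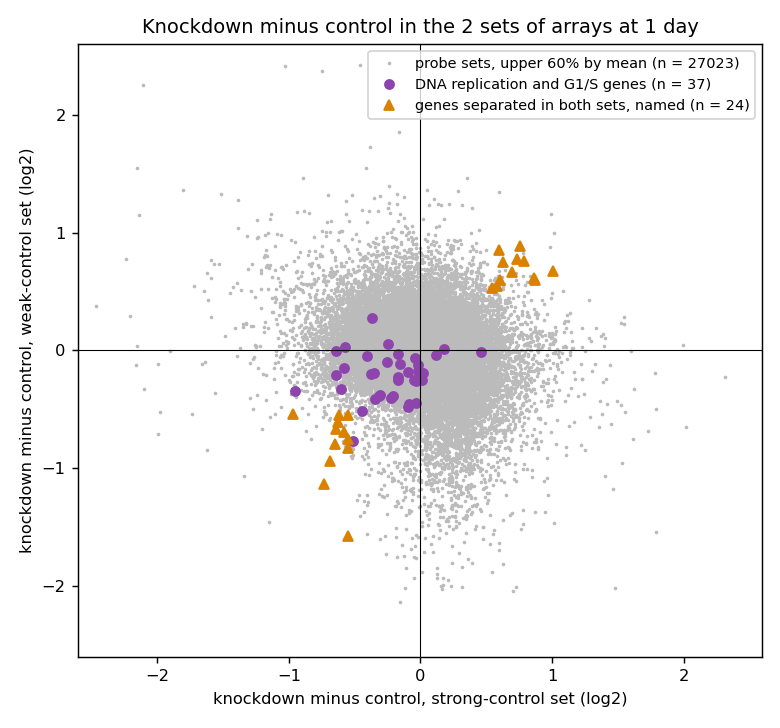
Each grey point is 1 of the 27023 probe sets in the upper 60% by mean intensity, placed by its knockdown minus control difference (log2) in the strong-control set on the horizontal axis and in the weak-control set on the vertical axis. Purple circles are the 37 DNA replication and G1/S genes, most of them at lower left, and orange triangles are the 24 genes named below for being separated in both sets. The cloud leans from upper left to lower right, and 12 probe sets lie outside the plotted range of 2.6 either way.

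The genes with the largest shared difference were taken from the 12234 genes in the upper 60% by mean intensity: the 12 each way that were separated in both sets and had the largest smaller difference. This choice used the values themselves, so the values that follow are a description and not a test. The last named on the higher side, Pigk, had a smaller difference of 0.53 and the next gene, Stx3, 0.51. On the lower side, Bhlhe40 was the last at 0.54 and Hspa1b the next, also at 0.54. In each case 1 array stands alone for its group within a set.

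The 12 lower genes included C1qb, Tyrobp, Ctsc and Samsn1. C1qb, a chain of the complement starter C1q that microglia make in brain, had log2 levels of 4.83 and 4.69 in knockdowns 2 and 3 against 5.31 in control 2, and 8.90 in knockdown 1 against 9.51 and 9.80 in controls 1 and 3. The knockdown arrays were lower within each set, by 0.55 and 0.75, although the sets themselves lay 4.24 apart. The strong-set values of C1qb lay near the low end of the scale. Their deposited intensities were 19.09 and 14.97 in knockdowns 2 and 3 and 34.47 in control 2. Without detection calls, whether C1qb was above background in the strong set is unknown, so its strong-set difference adds little to that of the weak set. Its probe set is of a kind that can cross-hybridise, and the 2 other probe sets of the gene had block differences of -0.80 and -0.20. Tyrobp, the signalling adaptor DAP12 of microglia and other myeloid cells, had 5.82 and 5.25 against 6.17 in the strong set and 8.50 against 9.08 and 9.25 in the weak set. Ctsc, the lysosomal protease cathepsin C, had 7.79 and 7.88 against 8.39, and 8.62 against 9.44 and 9.45. The other probe sets of Ctsc had block differences of -0.56 and 0.06. These genes share the pattern of C1qb: a lower knockdown value in each set, on top of a higher level in the weak set. Samsn1, an adaptor protein of blood cells, had 6.78 and 7.15 against 7.70, and 5.58 against 6.39 and 7.03, so it was lower within both sets while its level was higher in the strong set. Its block difference of -0.93 (95% interval -1.55 to -0.32) had an adjusted p of 1 in limma, as had all 24 named genes.

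Ifitm3 and Galt were the lower genes whose groups did not overlap across all 6 arrays (1.2% of all genes). Being chosen for separation in both sets favours such an order. Ifitm3, an interferon-induced membrane protein that blocks entry of viruses, had log2 levels of 8.65, 8.01 and 8.22 in knockdowns 1, 2 and 3 and 8.99, 8.80 and 10.18 in controls 1, 2 and 3. The highest control, control 3, stood more than 1 log2 unit above the others. Galt, an enzyme of galactose breakdown, had 7.75, 7.47 and 7.16 against 8.39, 7.94 and 8.33 in the same order. Its difference was similar in both sets, -0.63 in the strong and -0.60 in the weak, and -0.62 with the block (95% interval -1.04 to -0.19). Galt was chosen by these differences, so an interval clear of 0 is no test of it. Snhg12, a host transcript of small nucleolar RNAs, Pld1, a phospholipase D, and Bhlhe40, a repressor of the basic helix-loop-helix family, were lower by 0.58, 0.55 and 0.75 with the block, each with an interval that takes in 0. The others were Sult2a8, a sulfotransferase, and the transcripts C130026L21Rik and 3110009F21Rik. For 3110009F21Rik the strong and weak differences were as unlike as -0.55 and -1.58.

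On the higher side, Nfe2l1, Nrbp1 and Spry4 were among the 12. Nfe2l1, a transcription factor that induces proteasome genes, had log2 levels of 9.01 and 8.94 in knockdowns 2 and 3 against 8.40 in control 2, and 10.31 in knockdown 1 against 9.83 and 9.68. Its block difference was 0.56 (95% interval 0.17 to 0.95), whereas all 6 arrays without the block gave 0.12, since its level was 1.35 higher in the weak set. Nrbp1, a pseudokinase, had the same order of arrays within the sets, with 9.13 and 8.97 against 8.35, and 10.06 against 9.85 and 8.93. In both genes the difference over all arrays was smaller than that within either set. Spry4, an inhibitor of receptor tyrosine kinase signalling, had 8.20 and 8.01 against 7.23, and 6.32 against 5.72 and 5.70, a block difference of 0.73 (95% interval 0.32 to 1.15). Of the 3 other probe sets of Spry4, 2 had the same sign with the block and they lay between -0.28 and 0.18. The single probe set thus stands for a difference that the rest of the gene's probe sets do not share in size.

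The groups did not overlap for 3 of the higher genes (1.28% of all genes). The named genes were chosen for being separated in both sets, which favours such an order. Ncmap, a protein of peripheral myelin, had 6.92, 7.36 and 7.12 in knockdowns 1, 2 and 3 and 5.89, 6.45 and 6.44 in controls 1, 2 and 3. Its difference was 0.79 in the strong set, 0.76 in the weak set and 0.87 over all arrays. Urah, an enzyme of urate breakdown, had 7.16, 7.87 and 6.98 against 6.18, 6.41 and 6.80. Pigk, the catalytic subunit of the transamidase that attaches GPI anchors, had 7.41, 7.67 and 7.47 against 7.19, 7.03 and 6.55, but its 2 other probe sets lay on both sides of 0 with the block. The remaining genes were Zfp133-ps, Tex48, Cpsf4l, Lrrc6, Baat and Oosp2, among them genes known from testis (Tex48), oocyte (Oosp2) and liver (Baat), with block differences from 0.60 to 0.82. The other probe set of Baat had a block difference of -0.30. No detection call came with the intensities, so whether such transcripts were present above background is unknown.

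**Figure D3:**
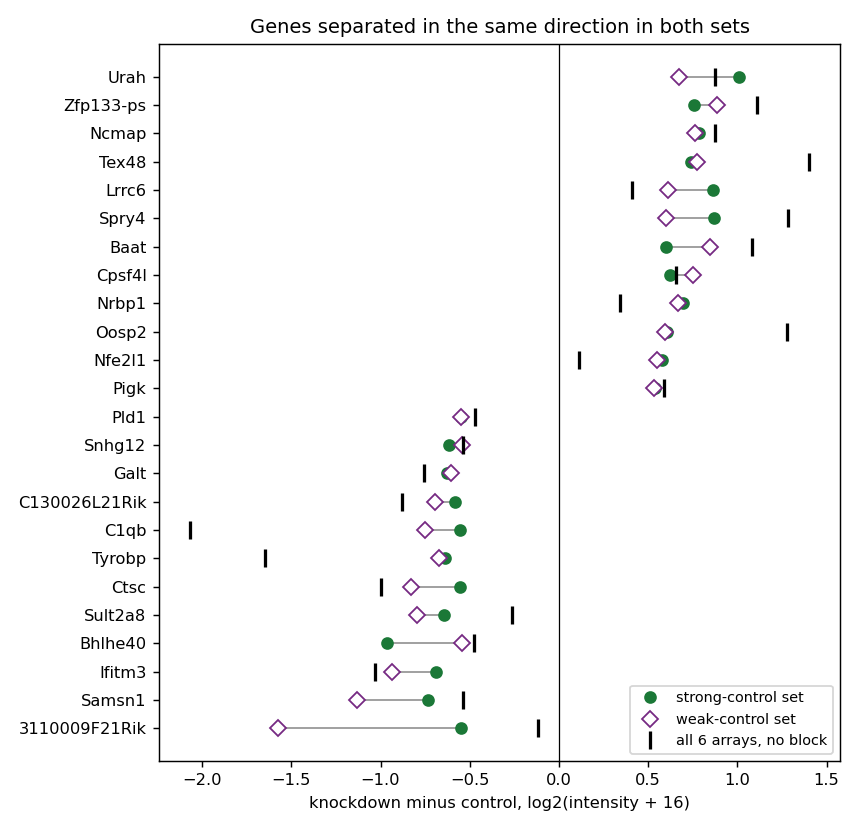
For the 24 genes separated in the same direction in both sets, filled circles give the knockdown minus control difference on the log2(intensity + 16) scale in the strong-control set, open diamonds that in the weak-control set, and black bars that over all 6 arrays without a block. The bars of C1qb (-2.07) and Tyrobp (-1.65) lie far outside the within-set values, and those of Nfe2l1 (0.12) and 3110009F21Rik (-0.12) lie near 0.

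Genes of DNA replication and the G1/S transition were the list with the largest share on one side in both sets. Of 37 measured genes, 29 were lower in the knockdown arrays of both sets, against 27.1% of all genes, 1 was higher in both (19.6% of all genes) and 7 had opposite signs. The list median was -0.21 on the log2 scale in the strong set and -0.20 in the weak set, where the medians of all genes were -0.04 and -0.01. In the separated sense, 15 were lower in both sets (10.7% of all genes) and none higher (7.23% of all genes). No member passed the adjusted threshold, and 2 (Ung and Prim2) had an unadjusted p of 0.050 and 0.048 with the block. In bulk arrays, fewer cells in a phase of the cycle and less RNA per cell cannot be told apart.

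The members with the largest shared difference came from several steps of replication. Ung, the glycosylase that removes uracil from DNA, had log2 levels of 9.65, 9.15 and 9.76 in knockdowns 1, 2 and 3 and 10.13, 9.97 and 10.71 in controls 1, 2 and 3. All 3 knockdowns lay below all 3 controls, with differences of -0.51 in the strong set and -0.77 in the weak set. Mcm5, a subunit of the MCM helicase that opens the origin, had 10.01, 9.78 and 10.16 against 10.27, 10.42 and 10.78. Again the groups did not overlap, and the differences were -0.45 and -0.51, while its 2 other probe sets had block differences of -0.52 and -0.06. Cdt1, which loads that helicase, had 10.27 and 10.28 in knockdowns 2 and 3 against 10.62 in control 2, and 9.83 in knockdown 1 against 9.99 and 10.50 in controls 1 and 3. Its groups overlapped across sets but not within them (-0.35 and -0.41). Prim2, the large primase subunit, had 7.24 and 7.83 against 8.48, and 9.08 against 9.24 and 9.62, so most of its difference lay in the strong set (-0.95 against -0.34). Rfc2 of the clamp loader and Rpa1 of the single-strand binding protein were the other members whose groups did not overlap, which makes 4 of 37 lower in all arrays (1.2% of all genes).

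The rest of the list varied in size and sign, also among genes of the same role. Of the helicase subunits Mcm2 to Mcm7, the signs were lower in both sets for all but Mcm7, whose strong-set difference was 0.01, and block differences ran from -0.12 to -0.48. Of the GINS subunits, Gins2, Gins3 and Gins4 were lower in both sets, Gins3 by 0.58 and 0.15, while Gins1 was lower by 0.24 in the strong set and higher by 0.05 in the weak set. E2f1, the transcription factor that drives entry into S phase, was lower by 0.31 and 0.38. Of the genes that make deoxynucleotides, Rrm1 was separated and lower in both sets (-0.17 and -0.23), while its partner subunit Rrm2 was higher by 0.12 in the strong set and Tyms by 0.46, with weak-set differences of -0.04 and -0.01. Ccne1, the cyclin of the G1/S kinase, was the only member higher in both sets (0.18 and 0.02), and Ccne2 was lower by 0.37 in the strong set and higher by 0.28 in the weak set.

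The weak-set side rests on control 3. The median deviation of the 37 genes from their means over 6 arrays was -0.27 in knockdown 2, -0.08 in knockdown 3 and 0.03 in control 2, and -0.05 in knockdown 1, 0.03 in control 1 and 0.37 in control 3. Knockdown 1 and control 1 thus differed by little, and control 3 was the highest of the 6 arrays. Without control 3, 20 of 37 members were lower in both sets (30.5% of all genes) and the weak-set median was -0.03; without control 1, 31 were and it was -0.38. In single pairs of arrays, 21 of 37 were lower in knockdown 1 than in control 1, 36 lower than in control 3, and 30 and 29 lower in knockdowns 2 and 3 than in control 2.

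**Figure D4:**
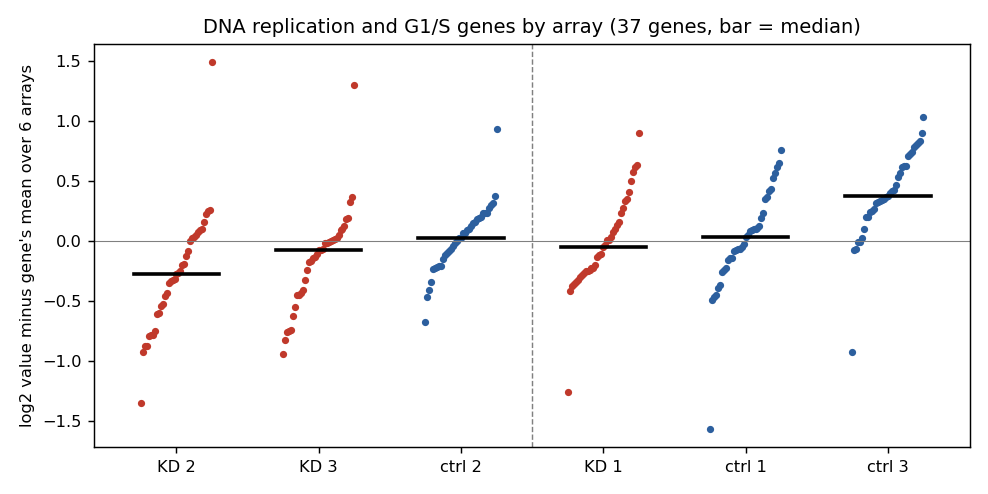
Each point is 1 of the 37 DNA replication and G1/S genes in 1 array, given as its log2 value minus the gene's mean over the 6 arrays, and the bar is the array's median. The medians are -0.27 and -0.08 in knockdowns 2 and 3 and 0.03 in control 2 (left of the dashed line), and -0.05 in knockdown 1, 0.03 in control 1 and 0.37 in control 3 (right of it).

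Many replication genes carry binding sites of E2F factors close to their start. Promoter windows of RefSeq (GRCm38.p6, from 250 bases before to 50 after the start) were at hand for 30 of the 37 genes, and they were searched on both strands for the letters TTTCCCGC and TTTGGCGC. A match was found for 9 of the 30 genes (30%) and for 486 of 27025 genes with a window (1.8%). The 9 were Mcm3, Mcm5, Mcm6, Mcm7, Cdc6, Cdt1, Gins3, Rfc3 and Pola1. Their median difference was -0.35 in the strong set and -0.25 in the weak set, and 7 of the 9 were lower in both. The 21 without a match had medians of -0.15 and -0.20, and 17 of them were lower in both. A match is a description of the letters, and the difference between the subsets was not tested. The windows of Mcm5 and Cdt1 are printed because, of the 9 genes with a match, they had the largest smaller difference over the sets, and the match is given in capitals. In Mcm5 (chr8:75109259-75109558, plus strand) it reads on the opposite strand and starts 149 bases before the start of transcription, and in Cdt1 (chr8:122567765-122568064, plus strand) it lies 32 bases after it.
Mcm5: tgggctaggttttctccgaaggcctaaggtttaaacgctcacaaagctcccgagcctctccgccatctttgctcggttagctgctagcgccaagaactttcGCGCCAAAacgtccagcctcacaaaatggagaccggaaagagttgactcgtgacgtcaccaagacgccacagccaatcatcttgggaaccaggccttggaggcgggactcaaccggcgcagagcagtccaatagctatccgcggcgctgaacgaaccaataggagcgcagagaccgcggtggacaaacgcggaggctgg
Cdt1: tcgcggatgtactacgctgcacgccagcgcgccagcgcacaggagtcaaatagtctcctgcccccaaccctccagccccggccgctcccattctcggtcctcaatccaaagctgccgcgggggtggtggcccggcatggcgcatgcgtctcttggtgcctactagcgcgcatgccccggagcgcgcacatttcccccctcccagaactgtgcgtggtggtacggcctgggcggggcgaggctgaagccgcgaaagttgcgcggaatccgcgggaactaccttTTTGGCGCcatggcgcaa

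Of 31 measured G2/M genes, 9 were lower in both sets (29.0%, against 27.1% of all genes) and 2 higher (6.45%, against 19.6%), and the list median was 0.05 in the strong set and -0.21 in the weak set. The list's mean log2 level was 10.53 in control 3 and between 9.82 and 10.07 in the 5 other arrays. The median difference was 0.08 for knockdown 1 minus control 1 and -0.51 for knockdown 1 minus control 3. Spc24, a subunit of the NDC80 kinetochore complex, was the exception, with 8.76, 8.29 and 8.08 in knockdowns 1, 2 and 3 and 8.82, 9.12 and 9.10 in controls 1, 2 and 3. Its groups did not overlap and its block difference was -0.57 (95% interval -1.13 to -0.01). Aurka, a mitotic kinase, was also lower in both sets (-0.31 and -0.39), and Ube2c, the ubiquitin-conjugating enzyme of mitotic exit, was higher in both (0.18 and 0.22). Of 30 microcephaly genes, 13 were lower in both sets (43.3%, against 27.1% of all genes) and 2 higher. The other 15 had opposite signs (50%, against 53.3% of all genes). Their list median was -0.007 in the strong set and -0.16 in the weak set for all 30. For the same list, knockdown 1 minus control 1 gave a median of -0.05 and knockdown 1 minus control 3 gave -0.32. The 6 separated and lower (10.7% of all genes) included Mfsd2a, a lipid transporter (-0.54 and -0.29), and Cdk5rap2, a centrosome protein (-0.28 and -0.18).

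The regulators named with ZNF335 in the title showed small differences. Of 24 genes of the trithorax H3K4 methyltransferase complexes, 10 were lower in both sets (41.7%, against 27.1% of all genes) and 2 higher, 5 were separated and lower (10.7% of all genes), and the list median was -0.15 in the strong set and -0.003 in the weak set. Men1, menin, a subunit of the KMT2A and KMT2B complexes, had log2 levels of 7.003 and 7.05 in knockdowns 2 and 3 against 7.39 in control 2, and 8.49 in knockdown 1 against 8.66 and 8.75 in controls 1 and 3. It was lower within each set by 0.37 and 0.22, and its 95% interval with the block was -0.68 to 0.10. Of the core subunits, Ash2l was lower by 0.33 and 0.09, while Rbbp5 was lower by 0.31 in the strong set and 0.01 in the weak set. Wdr5 had -0.22 and 0.03, and the catalytic subunit Setd1a -0.07 and -0.01. Bptf, a reader of the H3K4 mark, was the only one of the 24 whose groups did not overlap (1.2% of all genes), at -0.23 and -0.20. After scaling the arrays to the same median in place of quantile normalisation, 6 of the 24 were lower in both sets.

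Rest had log2 levels of 10.48 and 10.19 in knockdowns 2 and 3 against 10.26 in control 2, and 9.45 in knockdown 1 against 9.51 and 9.63 in controls 1 and 3. Its 2 strong-set knockdowns lay on both sides of the control. The block difference was -0.03 (95% interval -0.46 to 0.41), and the 3 other probe sets of the gene lay between 0.05 and 0.25. Of 19 genes for REST and its corepressors, 6 were lower in both sets (31.6%, against 27.1% of all genes) and none higher, with medians of -0.06 and -0.05. Rcor1 and Rcor2, the CoREST scaffolds, were lower by 0.36 and 0.41 in the strong set and had differences of -0.02 and 0.02 in the weak set. Zmynd8 and Ehmt2, a chromatin reader and a histone H3 lysine 9 methyltransferase, were the 2 of 19 separated and lower in both (10.7% of all genes).

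Neuronal genes that REST is known to hold silent had opposite differences in the sets. The list of 29 genes with RE1 sites had a median of -0.28 in the strong set and 0.26 in the weak set, and 26 of 29 had opposite signs (89.7%, against 53.3% of all genes). Stmn2, a regulator of growth cone microtubules, had 10.53 and 9.80 in knockdowns 2 and 3 against 11.08 in control 2, and 12.44 in knockdown 1 against 12.74 in control 1 and 10.47 in control 3. Control 3 alone was low in its set. Unc13a, which primes synaptic vesicles, had 6.78 and 6.72 against 7.90, and 9.63 against 9.86 and 7.998. Tubb3, the neuronal tubulin, had 10.64 and 10.39 against 10.94, and 12.24 against 12.07 and 10.82. In each of the 3 genes the strong-set knockdowns were below their control and control 3 was far below knockdown 1. The list's median difference was -0.06 between knockdown 1 and control 1 and 0.60 between knockdown 1 and control 3. Without control 3, 13 of the 29 genes were lower in both sets (30.5% of all genes). Grin2a, an NMDA receptor subunit, was the only member separated in both sets, higher by 0.31 and 0.27 (7.23% of all genes were separated higher).

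Several other neuronal lists also had strong-set and weak-set medians of opposite sign, but some of the lists share genes and are not separate observations. Syt1 and Snap25 are in the RE1, synaptic and postmitotic lists, and Bcl11b, Fezf2 and Sox5 in the postmitotic and deep-layer lists. Synaptic transmission genes had -0.25 and 0.33, postmitotic neuron genes -0.26 and 0.26, deep-layer projection neuron genes -0.22 and 0.32, upper-layer neuron genes -0.17 and 0.10, and inhibitory interneuron markers -0.28 and 0.45. Of 13 upper-layer genes, 12 had opposite signs (92.3%, against 53.3% of all genes). Controls 1 and 3 gave different medians against knockdown 1: knockdown 1 minus control 1 gave 0.03 for synaptic, -0.05 for postmitotic and -0.01 for deep-layer genes, and knockdown 1 minus control 3 gave 0.57, 0.61 and 0.81. For interneuron markers both were positive, at 0.32 and 0.75, and for upper-layer genes they were 0.07 and 0.06. Gad2, which makes GABA, was separated and higher in both sets, with 7.56 and 7.09 against 6.91, and 8.07 against 7.62 and 6.70. Robo2, an axon guidance receptor, was higher by 0.45 and 0.73, with a block difference of 0.59 (95% interval 0.06 to 1.12). Intermediate progenitor genes had medians of -0.13 and 0.03. Radial glia genes had 0.03 and -0.16, with 17 of 22 of opposite sign (77.3%), and knockdown 1 minus control 1 gave 0.01 where knockdown 1 minus control 3 gave -0.35. Hopx, a marker of outer radial glia in human cortex, had 6.69 and 7.26 in knockdowns 2 and 3 against 8.21 in control 2, and 8.37 in knockdown 1 against 8.60 and 8.90 in controls 1 and 3, a block difference of -0.81 (95% interval -1.49 to -0.13). Pax6, which marks radial glia, had differences of -0.14 and -0.09. Eomes, which marks intermediate progenitors, had -0.10 and 0.04, and Neurog2, the proneural factor, -0.13 and -0.08. Both kinds of marker were read on all 6 arrays, with Pax6 between 9.89 and 10.67, Eomes between 11.46 and 11.998 and Neurod2, of cortical neurons, between 11.80 and 12.18, so the labelled neural origin was borne by all arrays.

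**Figure D5:**
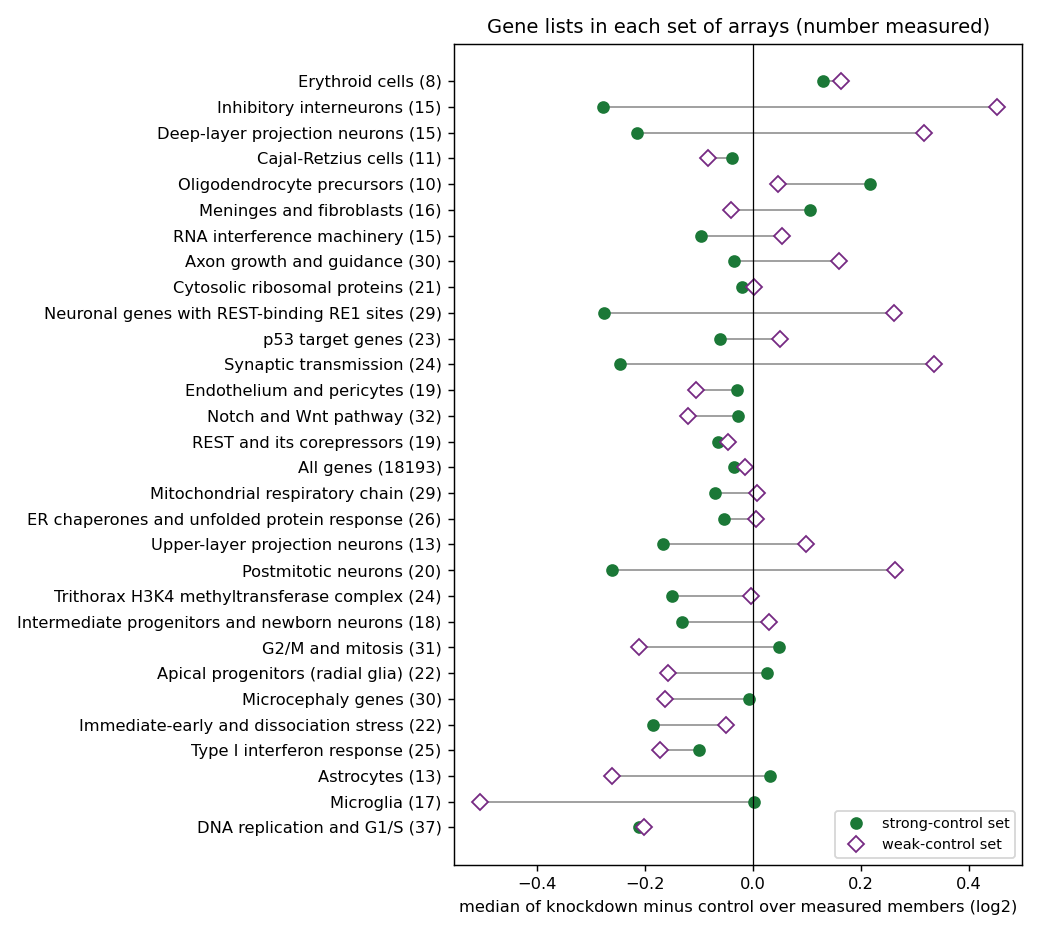
For 29 gene lists and for all genes, filled circles give the median knockdown minus control difference (log2) over the measured members in the strong-control set and open diamonds that in the weak-control set, ordered by their block median. The DNA replication and G1/S list has both medians near -0.2. The RE1, synaptic, postmitotic, projection neuron and interneuron lists have them on opposite sides of 0. Cajal-Retzius markers have -0.04 and -0.08, and microglia markers have 0.00 and -0.51.

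Markers of other cells varied more between the sets than between the groups. The mean log2 level of 17 microglia markers was 7.10 in knockdown 1 and 7.59 and 7.52 in controls 1 and 3, and 6.30 and 6.38 in knockdowns 2 and 3 and 6.31 in control 2. The weak-set arrays thus had the higher levels, and within them the knockdown was the lowest. The median difference was -0.51 in the weak set and 0.00 in the strong set. Of the 17 markers, 6 were separated and lower in both sets (10.7% of all genes): Csf1r, Aif1, C1qb, Tyrobp, Ctss and P2ry12. The other 11 had opposite signs in the sets (64.7%, against 53.3% of all genes). Among the members in the upper 60% of probe sets, 3 of 11 were separated and lower in both sets. Csf1r, the receptor that microglia need to survive, had 4.43 and 4.25 against 4.78 in the strong set, near the low end of the scale, and 7.81 against 8.52 and 8.44 in the weak set. Trem2, another microglial receptor, was not lower in either comparison of the weak set (0.11 and 0.60). The part of microglia in the lower C1qb, Tyrobp and Ctsc was not tested. Of 25 genes of the type I interferon response, 9 were lower (36.0%, against 27.1% of all genes) and 3 higher in both sets (19.6% of all genes). The lower included Ifitm3, Oas1a (-0.50 and -0.71) and Mx2 (-0.21 and -1.08) and the higher Stat2 (0.13 and 0.20), and their list level was highest in control 3 at 7.16.

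Endothelial and pericyte markers had list levels of 7.29, 7.43 and 7.03 in the weak-set arrays and 6.66 to 6.77 in the strong-set arrays, with medians of -0.03 and -0.11. Abcc9, a potassium channel subunit of pericytes, did not overlap between the groups, with 6.39, 6.45 and 7.09 in knockdowns 1, 2 and 3 and 5.83, 6.07 and 5.69 in controls 1, 2 and 3. Cajal-Retzius markers were higher in knockdown 1 and control 1 (8.31 and 8.98) than in the 4 other arrays (7.22 to 7.49). Erythroid markers, 8 of 12 listed, had levels between 5.43 and 6.27. Astrocyte, oligodendrocyte precursor and meningeal lists had block medians of -0.14, 0.04 and 0.03. Within the strong and the weak set, the medians were 0.03 and -0.26 for astrocytes and 0.22 and 0.05 for oligodendrocyte precursors. For the meningeal list they were 0.10 and -0.04.

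The remaining lists had the following medians, strong set before weak set. Ribosomal proteins had medians of -0.02 and 0.00, the mitochondrial respiratory chain -0.07 and 0.01, p53 targets -0.06 and 0.05, RNA interference machinery -0.10 and 0.05 (11 of 15 of opposite sign), and ER chaperones -0.05 and 0.01. Immediate-early and dissociation genes had -0.19 and -0.05, with Hspa1b ranging from 7.85 in knockdown 3 to 10.98 in control 2. In the Notch and Wnt list, Axin2, a feedback inhibitor of Wnt signalling, had 9.14, 8.94 and 8.30 in knockdowns 1, 2 and 3 and 9.42, 9.25 and 9.31 in controls 1, 2 and 3, without overlap (block -0.42, 95% interval -0.999 to 0.15). Pdia4, an ER disulfide isomerase, had 7.27, 7.74 and 7.42 against 6.98, 7.18 and 5.84, but its other probe set had a block difference of -0.03. Axon guidance genes had medians of -0.04 and 0.16.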

How the data were processed

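The deposited values were intensities per probe set on a linear scale for 45101 probe sets and 12 arrays. How the authors summarised, corrected or scaled the intensities they deposited is not stated in any source used here. Per the labels' protocols, total RNA was labelled with biotin for 3 prime arrays.

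The arrays were quantile normalised over all 12 with the control probe sets included. Then 16 was added and log2 was taken, so differences of dim probe sets are understated, and the 64 control probe sets were removed. Of the probe sets, 34945 had 1 gene symbol in the platform annotation, 932 several and 9160 none, and 34741 symbols were updated through their Entrez ID. The 6 arrays of 1 day were fitted with limma 3.58.1 in R 4.3.3: group alone (4 residual degrees of freedom), group with the hybridisation-control set as a block (3), and the 4 means of group by set (2), where an array alone in its group and set is assumed to vary like the others. Benjamini-Hochberg adjustment ran over all 45037 probe sets, and 3 against 3 samples cannot go below p = 0.1 in an exact permutation test. The number of arrays limits the precision. The fits were tested on simulated data.

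The members, gene lists and rules were chosen with earlier results of these data known. Named genes were up to 12 each way past the threshold, filled, since none passed, with genes in the upper 60% separated in both sets by their smaller difference. Also named were up to 5 each way with opposite differences, up to 4 of each list, and a fixed set with Zfp335, Rest and Men1. Other genes in the text were chosen after their values were seen, to show the range of a list. Alternatives were other normalisations, a background correction, pseudocounts, filters, array weights, a replicate block and leaving out each array. The bioB and bioC level as a covariate was chosen after seeing the data.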

Additional observations from a re-analysis of the deposited data

Results flagged for a closer look

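For 6 genes every knockdown array of one set lay on one side of its controls and every one of the other set on the opposite side, among the genes with the largest opposite differences. Over all genes, 3576 (19.7%) were separated in opposite directions in the sets, so such an order is common. For each of the 6, the test of the difference between the sets gave an adjusted p of 0.9997 in limma. None of these oppositions thus passed it. The weak-set effect minus the strong-set effect was 3.70 for Dlx1as, an antisense transcript at the interneuron gene Dlx1, from -2.15 in the strong set to 1.55 in the weak set. Signal of Dlx1as and Dlx1 cannot be told apart where probes match both. It was 3.17 for Gria1, an AMPA receptor subunit (-1.80 and 1.36), and 2.67 for Hbb-b2, an adult beta globin (-1.39 and 1.28). Gria1 had log2 levels of 6.56 and 6.17 in knockdowns 2 and 3 against 8.17 in control 2, and 9.41 in knockdown 1 against 9.22 and 6.88 in controls 1 and 3. Its other probe set had a block difference of 0.14. In the opposite direction it was -2.05 for 4933407O12Rik, -1.82 for Lrba and -1.82 for 4930552P12Rik. Lrba, a protein of vesicle traffic, had 8.89 and 9.03 against 8.15, and 5.87 against 5.91 and 7.85, so knockdown 1 and control 1 were close and control 3 was high.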

How the results depend on the processing

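No fit of knockdown against control had a probe set past the threshold under any alternative, except the fit without a block under estimated array weights, where 22612 passed; these weights gave knockdown 1 0.167 and control 2 0.264, which leaves mostly strong-set knockdowns against weak-set controls. Separated probe sets numbered 1877 higher in the upper 60%, which tests fewer probe sets. Leaving out 1 array gave 5788 to 8122 higher and 5817 to 8306 lower, since fewer arrays must be separated, and a correlation of -0.19 to 0.054 between the sets. Without knockdown 1 or control 2, a set loses a group and no within-set value exists. Without a block, signs turned under array weights for Lrrc6 (-0.040), Nfe2l1 (-0.63), Samsn1 (0.011), Sult2a8 (0.25) and 3110009F21Rik (1.21). Leaving out 1 array in turn, differences without a block ran from -0.34 to 0.38 for Nfe2l1, -0.79 to 0.22 for Sult2a8 and -0.76 to 1.00 for 3110009F21Rik, with the sign turned without knockdown 1 (-0.33, 0.22 and 1.00) and without control 2 (-0.34, 0.17 and 0.66), and from -0.0064 (without control 2) to 0.74 for Nrbp1. Others were 3110009F21Rik at a pseudocount of 64 (0.0055), Pigk over all its probe sets (-0.018) and Rest with the bioB and bioC covariate (-0.0015). With the block, Rest turned under median scaling (0.0090), over all its probe sets (0.083), without knockdown 3 (0.021) and without control 3 (0.014), with a leave-one-out range of -0.10 to 0.021, and Zfp335 under array weights (-0.00097) and without control 3 (-0.0036, range to 0.13). The causes were not tested beyond these constructions. Median scaling moved the members lower in both sets to 6 of 24 for trithorax, 3 of 19 for REST and its corepressors and 2 of 18 for intermediate progenitors.

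Whether the replicate numbers pair the samples cannot be told from the values, since deviations from the group means follow the sets. Same-numbered arrays correlated at 0.88 and 0.85 for numbers 1 and 2, which lie in the same set. Number 3, whose arrays lie in different sets, gave -0.37, while knockdown 3 and control 2 of the strong set gave 0.83. A replicate block gave 0 probe sets past the threshold, with 1008 at an unadjusted p under 0.05.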

Other observations

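The level difference between the sets of arrays, which crosses the study's groups, was large for single genes within most lists and ran in both directions. Of all genes, 5583 were higher and 3803 lower in the weak-control set at an adjusted p under 0.05 in limma (30.7% and 20.9%). Among genes of REST and its corepressors, Sin3a, a scaffold of histone deacetylase complexes, had log2 levels of 10.54, 10.23 and 9.68 in the strong-set arrays and 6.72, 6.65 and 7.78 in the weak-set arrays, while Ehmt2 was 1.00 higher in the weak set. Among DNA replication genes, Tyms had 9.96, 9.77 and 9.41 in the strong set and 7.22, 6.91 and 7.55 in the weak set, whereas Pola2 was 1.43 higher in the weak set. Sodium channel gene Scn2a had 10.34, 10.67 and 10.37 in the strong set and 7.89, 7.94 and 7.997 in the weak set, and Scn3b was 2.73 higher in the weak set.

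Of 17 microglia markers, 9 were higher and 2 lower in the weak set past the same threshold (30.7% and 20.9% of all genes). The leukocyte gene Ptprc was lower by 3.39, against C1qb higher by 4.24. Members of 1 cell type's list thus did not share a direction between the sets. Of 29 genes of the mitochondrial respiratory chain, 12 were higher and none lower past the threshold (30.7% and 20.9% of all genes). In all, 27 of the 29 had a higher level in the weak set, as had 10364 of all 18193 genes. What separates the sets was not tested.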
